A study of Mus musculus with 6 samples.

Results

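The gastrocnemius of wild-type mice was described from 3 RNA-seq libraries, which are the wild-type libraries among the 6 of a study of Tmem182, a muscle membrane protein gene. They were chosen by the genotype in the labels, and the 3 libraries from tmem182-/- mice entered no value. The labels give the strain as C57BL/6 and the age as 9 weeks, name no allele or agent for the wild-type group, and do not say that the libraries came from separate mice, so the spread between them may be technical. Tmem182 itself was listed at 147, 121 and 121 FPKM in libraries 1, 2 and 3, rank 373 of 19458 genes. FPKM is a fragment count scaled for transcript length and library total, and it is used wherever the levels of different genes are compared.

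The gastrocnemius is the large calf muscle of the hind limb. Its fibres are long syncytial cells packed with sarcomeres, in which myosin thick filaments pull on actin thin filaments when calcium is released from the sarcoplasmic reticulum. Fast fibres carry fast isoforms of the contractile proteins and draw on glycogen and phosphocreatine, whereas slow and oxidative fibres carry other isoforms, more mitochondria and more myoglobin. Most sarcomeric proteins exist as a fast and a slow or cardiac form made from separate genes.

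The labels' tissue and source fields name muscle, while their RNA protocol speaks of cultured myoblasts and myotubes, so markers of both were read first. Mki67, made by dividing cells, was listed at 0.04, 0.01 and 0.01 FPKM. Myh3, the embryonic myosin heavy chain of young myotubes, was listed at 1.08, 0.19 and 0.71 FPKM, and Mymk, the fusion protein of differentiating myoblasts, at 0.05 FPKM in library 1 and at 0 in libraries 2 and 3. The adult fast myosin gene Myh4 was listed at 11905, 11622 and 14396 FPKM, so the values follow the tissue label. Haemoglobin transcripts of blood (Hba-a1 at 357, 463 and 398 FPKM) and the endothelial cadherin Cdh5 (36.5, 21.8 and 28.4 FPKM) were also present, which places RNA of vessels and blood in the samples.

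The libraries held 17617775, 18672630 and 18089794 expected counts over 15812, 15830 and 15620 genes with a value above 0. A chi-square of the counts, divided by its degrees of freedom, lies near 1 where libraries differ by counting error alone, and it was 41.5 for libraries 1 and 2, 30.2 for libraries 2 and 3, and 10.9 for libraries 1 and 3. Library 2 thus stood apart from the other pair, and results that rest on it are given with and without it. The biological coefficient of variation, the spread between libraries beyond counting noise, was 15.2% with all 3 libraries and 8.76% without library 2. TMM scaling, which assumes that most genes do not differ, moved the median gene's log2 ratio by 0.11 between libraries 1 and 2, by 0.16 between libraries 1 and 3 and by 0.04 between libraries 2 and 3. An order of libraries is therefore given below mainly for library 2 against the others.

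The most abundant transcripts were those of the fast contractile apparatus and of energy supply. Acta1, skeletal alpha-actin of the thin filament, was listed at 30057, 33519 and 34045 FPKM, a mean of 32541 ± 2167 (SD, n = 3, as for every ± below). Ckm, the muscle creatine kinase that regenerates ATP from phosphocreatine, followed at 17303, 21532 and 19407 FPKM, and its range lay wholly below that of Acta1. Tnnt3, fast troponin T, was listed at 16732, 19432 and 19242 FPKM. These genes were lowest in library 1, which had the smallest share of counts in its leading genes.

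Ranks 4 to 13 went to the glycolytic enzyme genes Aldoa (16711 ± 2116 FPKM) and Gapdh (11627 ± 1244 FPKM), to the fast calcium pump Atp2a1 (13684 ± 1275 FPKM), and to the calcium buffer Pvalb (9437 ± 880 FPKM). The others at these ranks were Tpm1 (tropomyosin), Myh4 (myosin heavy chain IIB), Tnnc2 and Tnni2 (fast troponins C and I), and Mylpf and Myl1 (fast light chains), at means of 8927 to 15272 FPKM. The same 13 genes led in all 3 libraries and held 41.5% ± 2.72 of summed FPKM. A gap followed them: Tnni2, at rank 13, was listed at 8147, 9129 and 9504 FPKM, and Pygm, the glycogen phosphorylase at rank 14, at 4367, 5440 and 4379 FPKM. Of the 24 neighbouring pairs within the 25 leading genes, 13 had the same order in every library, and 6 of them had ranges that did not overlap (Acta1 above Ckm, Myl1 above Pvalb, Tnni2 above Pygm, Actn3 above Eno3, Eno3 above Casq1, and Pgam2 above Ldha). The top 25 of each library shared 22 genes.

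**Figure D1:**
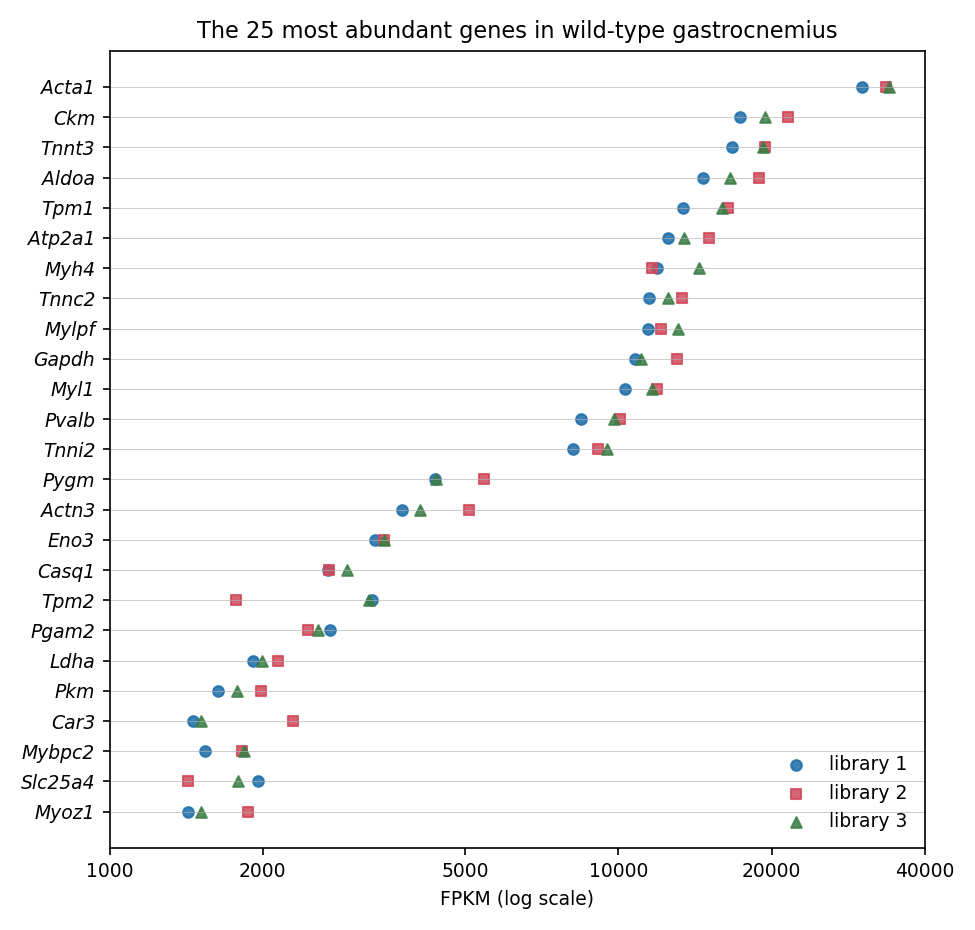
FPKM on a log axis of the 25 genes with the highest mean, 1 point per wild-type library. Acta1 lies apart at the top, 13 genes lie above 8000 FPKM in every library, and Tpm2 shows the widest spread of the 25, at 3281, 1773 and 3227 FPKM.

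Among the next genes by level were Actn3, the fast alpha-actinin of the Z-disc, at 3762, 5094 and 4079 FPKM, and Casq1, the calcium store protein of fast fibres, at 2685, 2694 and 2931 FPKM. Slc25a4, which exchanges ADP and ATP across the inner mitochondrial membrane, was the only mitochondrial protein gene among the 25, at 1959, 1424 and 1792 FPKM. Car3, a carbonic anhydrase of muscle and fat, was listed at 1461, 2294 and 1515 FPKM, highest in library 2, and Tpm2, a tropomyosin used more in slow fibres, was lowest in library 2. The 20 fast fibre genes listed together held 24.9% ± 1.51 of all counts, against 0.278% ± 0.170 for the 20 slow fibre genes. The 22 genes of glycogen use and glycolysis held 8.41% ± 0.774, and the 30 cytosolic ribosomal protein genes, which are short, held 0.913% ± 0.0184.

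Promoter windows of 250 bases before to 50 bases after the start, from RefSeq on build GRCm38.p6, were matched to 20 of these 25 genes and searched on both strands. The letters CAGCTG, an E-box that myogenic factors of the MyoD family are known to bind and its own reverse complement, stood in 13 of the 25 windows of the 25 most abundant genes (52.0%) and in 26 of the 104 windows of the 100 most abundant (25%). The share was 16.3% over all 32851 windows and 15% over the 6350 windows of genes with a mean of at least 5 FPKM. TATAAA, which can lie within a MEF2 site or a CArG box, stood in 12% of the windows of the 25, in 13.6% of all windows and in 7.39% of those of genes at 5 FPKM or more. CATTCC stood in 32.0%, 14.7% and 11.8%. The MEF2 site stood in 12%, 3.19% and 2.16%, and the CArG box in 12%, 1.63% and 1.62%. A match is a description of the letters, and binding was not measured.

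The 250 bases before the start are shown for Acta1, Ckm and Myh4, which lead the ranks by level or by counts, and for Tnni1 and Myoz2, slow-fibre genes with wide ranges between libraries described further on. They were chosen because they hold the motif, after its matches were seen. Over the slow fibre list it stood in 8 of 24 windows (33.3%), which belong to 6 of the 18 genes matched. Capitals mark CAGCTG, which begins 221, 249, 67, 68 and 12 bases before the start in that order. The start is that of the promoter window and can lie inside the gene. Tnni1 has 2 windows, and the one shown lies within the span listed for the gene (135783033 to 135810989). The CAGCTG of Myoz2 also lies within the span of its gene (123006206 to 123035003). The positions are chr8:123894776-123895025 (minus strand), chr7:19410844-19411093 (plus strand), chr11:67237562-67237811 (plus strand), chr1:135799171-135799420 (plus strand) and chr3:123034988-123035237 (minus strand), each written 5′ to 3′ toward the start.
Acta1: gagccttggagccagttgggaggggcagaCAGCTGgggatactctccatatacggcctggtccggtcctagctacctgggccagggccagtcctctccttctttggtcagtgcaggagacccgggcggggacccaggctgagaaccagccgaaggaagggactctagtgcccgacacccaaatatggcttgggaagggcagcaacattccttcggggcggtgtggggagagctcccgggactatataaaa
Ckm: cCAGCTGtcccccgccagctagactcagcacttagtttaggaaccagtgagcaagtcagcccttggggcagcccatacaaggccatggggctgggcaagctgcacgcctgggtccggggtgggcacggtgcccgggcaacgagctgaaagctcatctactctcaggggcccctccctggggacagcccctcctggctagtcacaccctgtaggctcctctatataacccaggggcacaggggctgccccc
Myh4: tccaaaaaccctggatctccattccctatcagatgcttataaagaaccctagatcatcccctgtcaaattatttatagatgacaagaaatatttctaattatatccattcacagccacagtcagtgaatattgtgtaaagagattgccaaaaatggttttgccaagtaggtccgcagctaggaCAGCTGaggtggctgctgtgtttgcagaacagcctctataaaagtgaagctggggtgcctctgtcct
Tnni1: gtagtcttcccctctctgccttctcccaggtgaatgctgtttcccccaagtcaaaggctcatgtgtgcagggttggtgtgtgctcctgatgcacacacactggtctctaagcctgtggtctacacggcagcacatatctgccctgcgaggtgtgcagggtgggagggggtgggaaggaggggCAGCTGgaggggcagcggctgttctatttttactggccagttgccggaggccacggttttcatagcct
Myoz2: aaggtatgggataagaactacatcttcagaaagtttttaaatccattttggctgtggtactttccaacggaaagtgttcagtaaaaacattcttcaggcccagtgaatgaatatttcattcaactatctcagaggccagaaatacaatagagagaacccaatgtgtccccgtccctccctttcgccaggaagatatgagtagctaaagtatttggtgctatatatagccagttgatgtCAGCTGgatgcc

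A small number of genes took most of the counts. The 10 genes with most counts held 28.2%, 31.7% and 31.9% of the counts of libraries 1, 2 and 3 (30.6% ± 2.07), and the 100 with most held 52.9% ± 2.19. The exact 95% interval of the share of the 10 in library 1 ran from 28.17% to 28.21%, which covers counting error only. The spread between libraries was thus far wider than counting error, with library 1 the lowest. In each library 96, 62 and 59 genes together held 50% of the counts, and 3508, 3182 and 3138 held 90%.

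**Figure D2:**
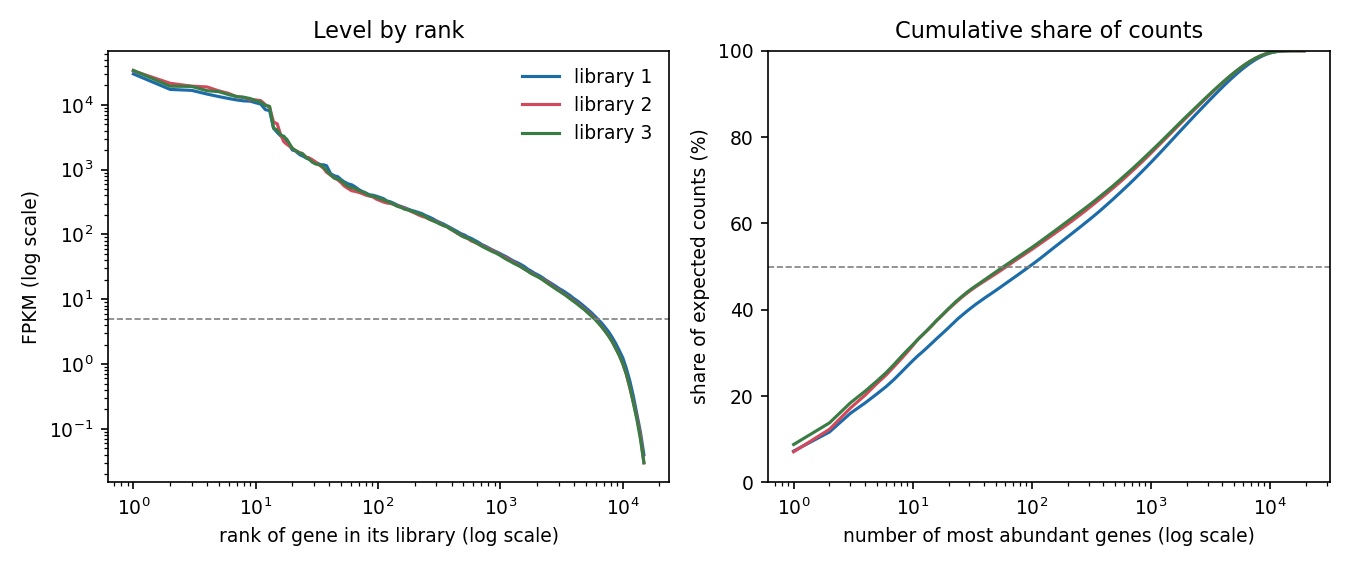
Left, FPKM by rank within each wild-type library, both axes on a log scale, with the line at 5 FPKM. Right, the cumulative share of expected counts by number of genes; the curve of library 1 lies lowest and crosses 50% at 96 genes, against 62 and 59 in libraries 2 and 3.

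Counts grow with transcript length, so the order by counts differed from the order by level. Myh4 held the most counts in every library, at 7.27%, 7.10% and 8.79%, although it ranked 7 by FPKM. Ttn, which encodes the giant spring protein titin, held 1.62% ± 0.178 of the counts at rank 8 but ranked 252 by FPKM, at 191, 163 and 203 FPKM. Neb, the giant thin-filament ruler nebulin, held 0.820% ± 0.124 at rank 15 and ranked 105 by FPKM. Of the 25 leading genes by FPKM, 20 were also among the 25 leading by counts.

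Most listed genes were low. Of 19458 genes, 2567 (13.2%) were listed at 0 FPKM in all 3 libraries, 6658 had a mean above 0 and under 1 FPKM, and 4183 a mean from 1 to under 5 FPKM. At 1000 FPKM and above stood 38 genes, which held 40.9% of the counts. The mean reached 5 FPKM for 6050 genes, of which 5622 reached it in every library. At that limit Nup98 (5.03, 5.36 and 4.61 FPKM), a nuclear pore gene, and Junb (4.83, 4.87 and 5.30 FPKM), an AP-1 transcription factor gene, lay just inside. Frmd6 (5.65, 4.49 and 4.85 FPKM) and Slc31a1 (5.65, 4.42 and 4.92 FPKM), a copper importer gene, lay just outside.

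The 3 libraries differed little for most of these 6050 genes. The fold range, which is the highest FPKM over the lowest of the 3 libraries, had a median of 1.19, and 5449 genes (90.1%) stayed under 1.5. A range of at least 2 was reached by 163 genes (2.69%), of at least 5 by 31 and of at least 10 by 13. The exact 95% Poisson intervals of the highest and the lowest count, which cover counting error only, were apart for 3531 of the 6050 genes, the 163 included. Without library 2 only 14 genes of 6058 reached 2-fold, against 87 of 5932 without library 1 and 149 of 6138 without library 3. The gene sets differ because the limit of 5 FPKM was applied again to the mean of the libraries left. With TMM-scaled counts 141 genes reached 2-fold, and 135 of them were among the 163.

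The steadiest abundant genes were chosen as the 8 with the smallest range at a mean of at least 100 FPKM. Rpl9, a ribosomal protein gene, was listed at 174.7, 174.1 and 173.5 FPKM, a range of 1.01. Rpl41, Rplp0 and Rpl26, also of the ribosome, Cmya5 and Pdlim3 of the Z-disc region, Ank1, an ankyrin of the sarcoplasmic reticulum, and Nme2, a nucleotide kinase gene, reached at most 1.02. Under TMM scaling these 8 ranged from 1.10 to 1.13. Of 29 ribosomal protein genes with a mean of at least 5 FPKM none reached 2-fold, which at 2.69% of the 6050 genes is no result about that list. Their median range was 1.10, against 1.19 over the 6050 genes.

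**Figure D3:**
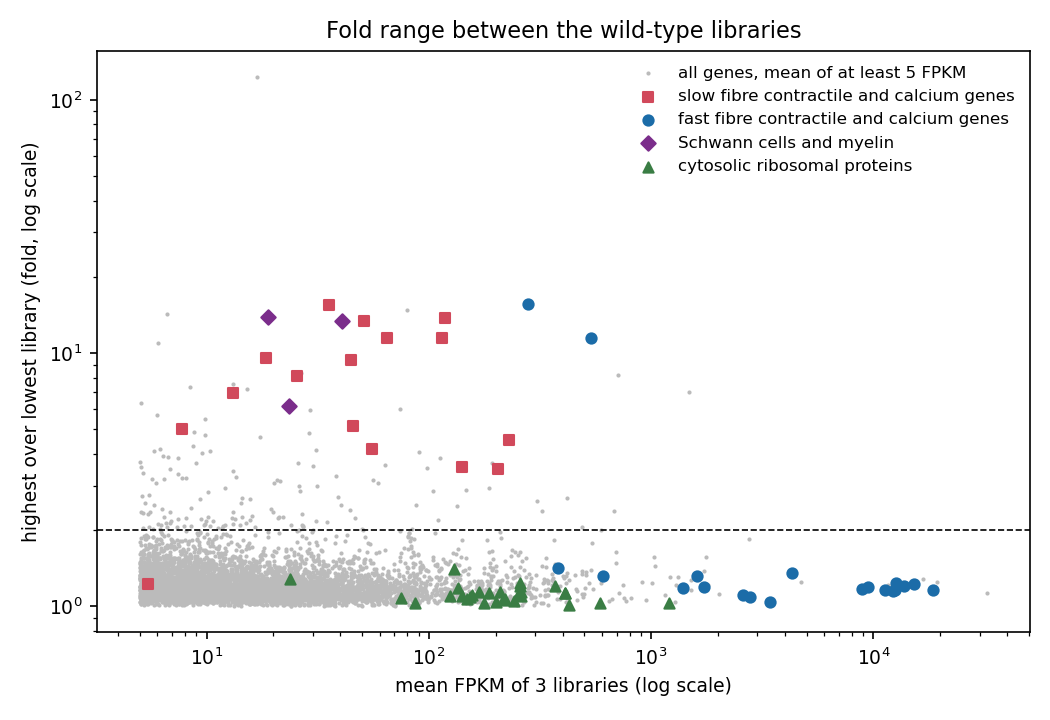
Fold range between the 3 wild-type libraries against mean FPKM, both on log axes, for 6050 genes in grey, with 4 gene lists in colour and the line at 2-fold. Slow fibre genes (red squares, median 7.55) lie above the line apart from Myl6b, ribosomal protein genes (green triangles, median 1.10) near the floor, and fast fibre genes (blue circles, median 1.19) low apart from Myh1 and Myh2.

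Library 2 was the lowest for 129 of the 163 genes past 2-fold (79.1%), and for 37.4% of the 6050. With TMM scaling it was lowest for 130 of the 163. Of the 129, 52 belonged to at least 1 of the gene lists. The share of the 6050 genes in a list was not counted, and the lists were chosen with earlier results of these data known. The count is therefore a description only. Of the 25 widest ranges, most belonged to slow and oxidative fibre genes and 3 to myelin genes.

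The slow fibre list showed this most fully. Of its 20 members 16 had a mean of at least 5 FPKM. Of the 16, 15 reached 2-fold, each lowest in library 2, against 2.69% of all genes at that level, and without library 2 none did. The list was chosen with earlier results of these data known, so the count is a description only. Myh7, the type I myosin heavy chain, was listed at 76.5, 5.71 and 71.6 FPKM, a range of 13.4. Myl2 and Myl3, the slow regulatory and essential light chains, were listed at 193.8, 14.0 and 146.2 FPKM and at 188.9, 16.4 and 136.9 FPKM. For all 3 genes libraries 1 and 3 lay far nearer to each other than to library 2, which lay below both.

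The slow thin filament genes had the same shape. Tnnt1, slow troponin T, was listed at 99.5, 8.66 and 86.9 FPKM, and Tnni1, slow troponin I, at 28.8, 3.0 and 23.6 FPKM. Tnnc1, the troponin C shared by slow and cardiac muscle, was listed at 62.7, 6.87 and 64.4 FPKM. Of Z-disc genes, Myoz2, a calsarcin of slow fibres, was listed at 62.1, 4.02 and 40.5 FPKM, and Actn2, the alpha-actinin of slow and cardiac muscle, at 330.2, 72.8 and 284.4 FPKM. Library 2 was the lowest in each. Atp2a2 and Casq2, the slow calcium pump and calcium store protein, ranged 5.14-fold and 5.01-fold. Myl6b, a light chain gene listed at 4.93, 6.07 and 5.30 FPKM, was the member that did not follow, and was highest in library 2. In bulk muscle, fewer slow fibres and less slow-gene RNA per fibre cannot be told apart.

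Myosin heavy chains of types IIA and IIX went with the slow genes. Myh2, type IIA, was listed at 439.8, 28.1 and 367.6 FPKM, a range of 15.6. Myh1, type IIX, was listed at 867, 75.7 and 668 FPKM, a range of 11.5. Myh4, type IIB, was listed at 11905, 11622 and 14396 FPKM, a range of 1.24. Library 2 was low for types I, IIA and IIX, and type IIB alone of the 4 stayed within 1.5-fold. Summed over these 4 genes, Myh4 gave 89.6%, 99.1% and 92.9% of the heavy chain FPKM, Myh1 6.53%, 0.645% and 4.31%, Myh2 3.31%, 0.240% and 2.37%, and Myh7 0.576%, 0.0487% and 0.462%. On GRCm38 Myh2 (67171027 to 67197517), Myh1 (67200102 to 67224577) and Myh4 (67237812 to 67260447) lie side by side on chromosome 11. Their transcripts are alike, so reads divided among them by estimation make each value less certain.

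Setting each slow or cardiac gene against its fast partner gives a ratio within a library that library scaling does not move. In 13 of 13 such families, a set put together with these values in view, the slow share was lowest in library 2. The share of Tnni1 in the troponin I genes was 0.352%, 0.0329% and 0.248%. That of Ldhb, the heart-type lactate dehydrogenase, against Ldha was 6.44%, 0.415% and 4.70%. The range of the share ran from 3.61-fold for Mybpc1, the slow myosin-binding protein C, to 19.5-fold for Myoz2, while no fast partner ranged over 1.35-fold. The fast partner of Myh7 was the sum of Myh4, Myh1 and Myh2, which ranged 1.32-fold. Within that sum, which Myh4 dominates, Myh1 and Myh2 alone ranged 11.5-fold and 15.6-fold. Actc1, cardiac alpha-actin, was the most abundant gene past 2-fold, at 2003, 301 and 2120 FPKM.

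**Figure D4:**
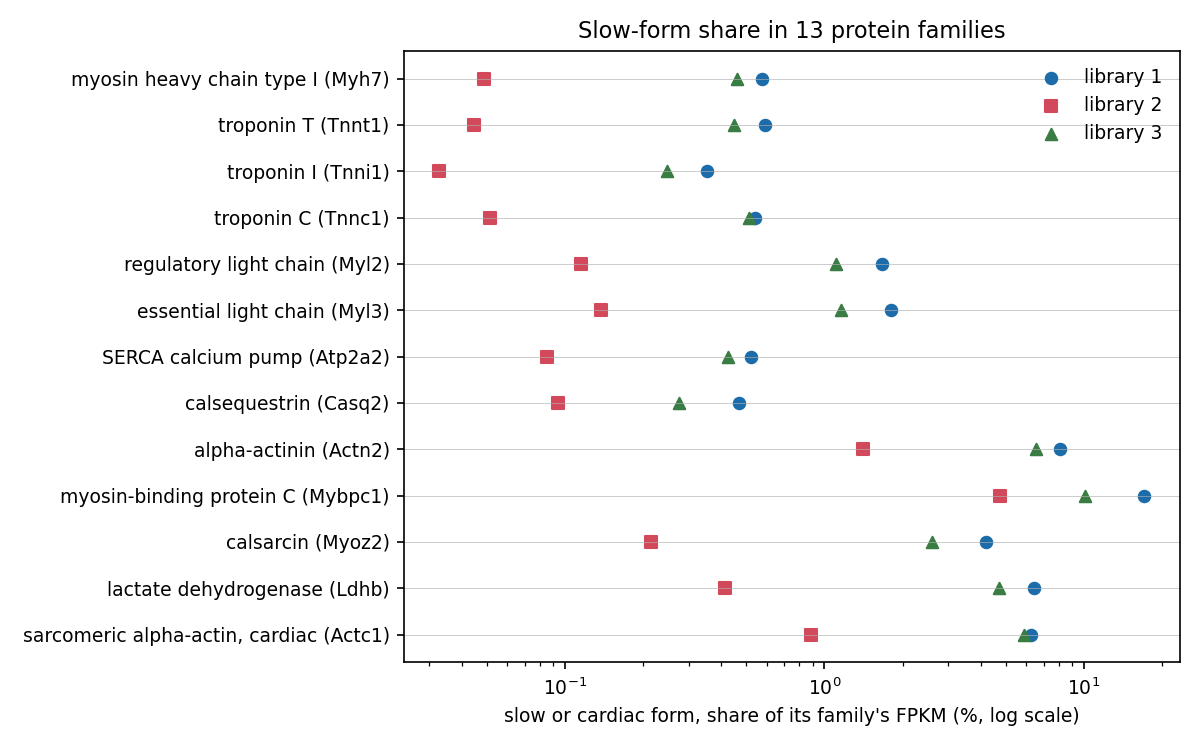
Share of the slow or cardiac form in the summed FPKM of its family, on a log axis, in each wild-type library for 13 families. The library 2 square lies to the left of both other points in every row, for example 0.0487% against 0.576% and 0.462% for Myh7.

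The 5 genes whose pattern over the 3 libraries was most like that of Myh7, by the mean absolute difference of centred log2 FPKM, were Bdh1 (0.036), Myh2 (0.085), Ldhb (0.11), Tnnt1 (0.12) and Myl2 (0.13). Bdh1, a ketone body dehydrogenase gene, was listed at 9.96, 0.70 and 9.26 FPKM. Likeness over 3 libraries rests mostly on the low value of library 2. Barx2, a homeobox gene, had the same order at 9.54, 0.87 and 7.77 FPKM, and so did Fxyd6, a regulator of the sodium pump, at 25.9, 3.57 and 16.3 FPKM. Chac1, which degrades glutathione, was also lowest in library 2 but highest in library 3, at 12.9, 3.12 and 23.5 FPKM.

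Genes of oxidative metabolism were also mostly lowest in library 2. Mb, myoglobin, which stores oxygen in oxidative fibres, was listed at 1150.0, 139.9 and 830.2 FPKM, a range of 8.22, while 5 of the 6 oxygen genes at this level, such as Hba-a1, were highest in library 2. All 20 fatty acid genes, all 21 genes of the citric acid cycle and 23 of 25 nuclear genes of the respiratory chain and ATP synthase were lowest in library 2. With TMM scaling the counts were 20, 21 and 24. Over the 6050 genes the share lowest in library 2 was 37.4%, and 34.7% with TMM scaling. Their median ranges were 1.90, 1.43 and 1.38, against 1.19 over the 6050 genes. Past 2-fold were 7 of 20, 2 of 21 and 0 of 25, against 2.69% of the 6050 genes, so that 0 of 25 is no result about that list. Without library 2 none of them passed. Without library 1, 5 genes of the fatty acid list and 1 of the citric acid cycle list did. With TMM scaling 6 of 20, 2 of 21 and 0 of 25 passed.

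Lpl, the lipase that frees fatty acids at the vessel wall, was listed at 110.9, 18.4 and 93.4 FPKM. Fabp3, the muscle fatty acid carrier, was listed at 268, 72.9 and 238 FPKM, and Acadl, an acyl-CoA dehydrogenase of beta-oxidation, at 79.2, 25.1 and 63.8 FPKM. In each gene library 2 lay under the other 2 libraries, which were close. Of the citric acid cycle, Idh2 was listed at 135.1, 33.3 and 102.0 FPKM and Mdh1 at 144.3, 66.1 and 120.0 FPKM. Atp5b, the catalytic subunit of ATP synthase, was listed at 1192, 825 and 1100 FPKM, a range of 1.45. Ckmt2, the mitochondrial creatine kinase, was listed at 584, 218 and 457 FPKM, whereas cytosolic Ckm had a range of 1.24 and was highest in library 2.

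Of 21 glycolytic genes, 17 were highest in library 2 (16 with TMM scaling), against 37.8% of the 6050 genes (45.4% with TMM scaling). Their median range was 1.21, close to the 1.19 over all genes. Pygm, listed above, ranged 1.25-fold, and Phka1, a subunit of the kinase that activates it, was listed at 129.8, 183.6 and 141.3 FPKM. Gys1, Pgk1, Pgam2 and Ldhb did not follow and were lowest in library 2, of which only Ldhb passed 2-fold. Genes of calcium release and excitation-contraction coupling had a median range of 1.18, close to the 1.19 over all genes. Past 2-fold were 0 of 21, which at 2.69% of all genes is no result about that list. Ryr1, the calcium release channel, was listed at 474, 559 and 474 FPKM, and Cacna1s, its voltage sensor, at 309, 297 and 302 FPKM. Of 25 structural sarcomere genes 5 passed 2-fold, against 2.69% of the 6050 genes. They were Lmod2, Myom3, Actc1, Xirp2 and Cryab, all lowest in library 2 and none past 2-fold without it. With TMM scaling 4 passed, and Cryab did not, at 1.82.

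**Figure D5:**
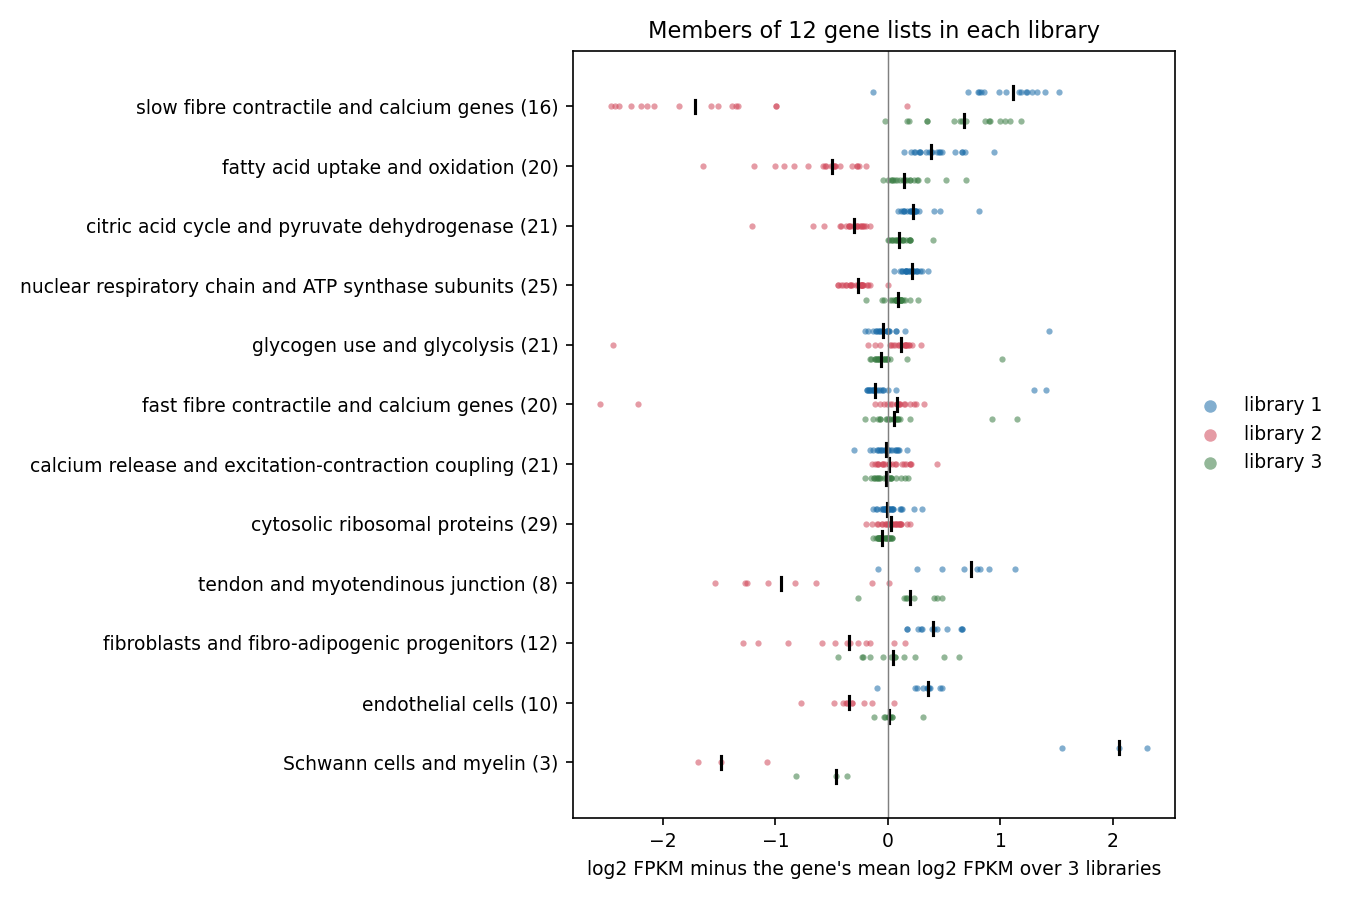
Log2 FPKM of each gene in each wild-type library minus the gene's mean over the 3 libraries, for 12 lists with the number of genes in brackets; black bars are medians. Library 2 (red) lies to the left for slow fibre, fatty acid, citric acid cycle, respiratory chain, tendon, fibroblast and endothelial genes, and library 1 (blue) to the right for the 3 Schwann cell genes.

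Markers of other cell types also differed between the libraries. Schwann cells wrap axons in myelin. Of 12 marker genes 3 had a mean of at least 5 FPKM and all 3 passed 2-fold (1 without library 1), against 2.69% of the 6050 genes. Mbp, myelin basic protein, was listed at 47.6, 3.44 and 5.46 FPKM, and Pmp22, another myelin protein, at 49.7, 8.08 and 12.3 FPKM. In both genes library 1 stood far above the other libraries. The median ratio of library 1 to library 3 was 5.33 over the 3 Schwann cell genes and 1.27 over the 16 slow fibre genes. The 12 markers summed to 219, 24.2 and 44.8 FPKM, and Sox10, which defines the lineage, was listed at 2.46, 0.39 and 0.85 FPKM. The part of nerve in the slow-gene values was not tested.

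Tendon markers were lowest in library 2 for 7 of 8 genes (6 with TMM scaling) and fibroblast markers for 9 of 12, against 37.4% of the 6050 genes. Of 12 tendon markers 8 had a mean of at least 5 FPKM and 6 passed 2-fold, against 2.69% of the 6050 genes. The 12 summed to 293, 106 and 216 FPKM. Tnmd, the tendon membrane protein tenomodulin, was listed at 8.58, 1.35 and 5.23 FPKM, and Fmod, a collagen-binding proteoglycan, at 152.7, 53.7 and 105.5 FPKM. Without library 2 no tendon marker passed 2-fold, and without library 1, the highest for 7 of the 8, 1 did. Of 15 fibroblast markers 12 reached that level and 4 passed 2-fold, with sums of 984, 522 and 754 FPKM: Col1a1 (149.8, 38.8 and 147.6 FPKM) and Col1a2, the chains of collagen I, Sparc, and Pi16. With TMM scaling 3 of these passed, and Pi16 did not, at 1.93. The fibroblast receptor Pdgfra was listed at 3.04, 2.33 and 2.08 FPKM. The part of connective tissue in the values of library 2 was not tested.

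Vessel, fat and immune markers had few or no members past 2-fold, but their median ranges lay above the 1.19 of the 6050 genes. The medians were 1.62 for endothelial, 1.44 for smooth muscle and pericyte, 1.43 for adipocyte and 1.62 for macrophage genes. Of 10 endothelial genes at this level 9 were lowest in library 2, against 37.4% of the 6050. The growth factor receptor gene Kdr (17.0, 7.22 and 15.3 FPKM) was the 1 that passed 2-fold. The 14 markers summed to 327, 198 and 255 FPKM. None of 10 smooth muscle and pericyte genes and none of 6 adipocyte genes passed 2-fold, which at 2.69% of all genes is no result about these lists. Adipoq, the fat hormone adiponectin, was listed at 1.17, 1.45 and 1.09 FPKM and Ucp1, the uncoupling protein of brown fat, at 0 in all 3. Macrophage markers summed to 39.1, 27.6 and 26.2 FPKM, with Adgre1 at most 0.35 FPKM. Lymphocyte genes were at or near 0, with Cd3g listed at 0 in all 3.

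Of the 163 genes, 28 (17.2%) were highest in library 2, against 37.8% of the 6050. In a list was 1 of the 28, a description only, since the share of the 6050 genes in a list was not counted. The genes named here were chosen from the 28 after their values were seen. Among them were genes of polyamine synthesis and turnover: Odc1, ornithine decarboxylase, was listed at 29.99, 92.5 and 54.8 FPKM, Amd1, adenosylmethionine decarboxylase, at 391, 929 and 716 FPKM, and Smox, spermine oxidase, at 173, 451 and 294 FPKM. All 3 had library 1 lowest, library 2 highest and library 3 between. Of the 16 slow fibre genes at a mean of at least 5 FPKM, 14 were highest in library 1 and 15 lowest in library 2. Amd1 has a near-identical copy, Amd2, listed at 4.72, 10.5 and 7.24 FPKM, and reads may be divided between them. Mylk4, a myosin light chain kinase family gene, was listed at 216, 511 and 244 FPKM, and Six2, a homeobox gene, at 6.78, 23.2 and 9.50 FPKM.

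Between libraries 1 and 3 alone, 14 genes were at least 2-fold apart, 12 of them higher in library 1 and 2 in library 3. The myelin genes Mbp and Pmp22 were among the 12, as were Cdkn1a, a cell cycle inhibitor gene induced by stress (11.8, 3.37 and 5.49 FPKM), and Jun, an immediate early transcription factor gene (38.8, 20.1 and 19.4 FPKM). Of 9 immediate early genes at this level, Jun and the growth inhibitor gene Btg2 passed 2-fold, against 2.69% of the 6050 genes. Neither did without library 1, and with TMM scaling only Btg2 did. Fos, another gene of this class, was listed at 4.72, 6.17 and 2.40 FPKM.

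Clock genes keep daily time, and the hour of sampling is not in the labels. Of 14 at this level Dbp passed 2-fold, and not without library 1 or library 2, at 31.6, 70.5 and 37.2 FPKM, while the core clock gene Arntl was listed at 12.7, 6.43 and 8.94 FPKM, a range of 1.97. Dbp was high and Arntl low in library 2. Of 17 chaperone genes, Hspb7 (97.7, 26.9 and 66.0 FPKM) and Cryab (785, 392 and 599 FPKM), small chaperones of muscle, passed 2-fold (1 of them without library 1, none without library 2), and Cryab did not with TMM scaling, at 1.82. Pdk4, the kinase that shuts pyruvate dehydrogenase in fasting, was listed at 25.6, 8.80 and 27.7 FPKM. Genes of metal and oxidative stress (0 of 12), of the interferon response (0 of 5) and of the neuromuscular junction (0 of 7) had no member past 2-fold, which at 2.69% of all genes is no result about these lists.

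Regulators of the muscle lineage were present at low to moderate levels. Myf6, the myogenic factor of mature fibres, was listed at 47.6, 59.0 and 44.9 FPKM, and Myod1, the factor linked to fast fibres, at 16.5, 19.98 and 11.7 FPKM. Both were highest in library 2, also with TMM scaling. Myog, a factor of differentiation, was listed at 3.25, 2.08 and 1.84 FPKM, and Pax7, which marks satellite cells, the stem cells of muscle, at 1.35, 1.31 and 1.14 FPKM.

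The largest range of all, 123-fold, belonged to Zbed5, a gene of transposon origin listed at 28.3, 22.2 and 0.23 FPKM. Its expected counts were 230.6, 192.2 and 9.82, and the transcript length implied by count and FPKM shifted 5.10-fold between libraries. TMM-scaled counts put its range at 21.6-fold. Across the 6050 genes the implied length shifted by more than 1.5-fold for 3 genes. Counts of Zbed5 were not whole numbers, which places its reads among those divided between transcripts by estimation.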

How the data were processed

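Wild-type gastrocnemius RNA was read from 3 gene tables of 19458 genes each, and the 3 knockout tables were not used. Samples were grouped by the genotype in the labels. Per the file headers, the tables hold read counts and expression values. The counts that the authors deposited are raw expected counts: 26.3% to 27.0% of them per library are not whole. Expression was deposited as FPKM, scaled by the authors to transcript length and library total. HISAT2 2.0.4, Bowtie2 2.2.5, RSEM 1.2.12 and the GRCm38 build are named in the submitters' processing notes. Their roles, read filters, annotation and strand handling were not given in the sources used here. RSEM divides reads that fit several transcripts, so near-identical, overlapping and antisense genes are less certain.

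Values were summarised with Python 3.11.15 and pandas 2.3.3. FPKM were used as deposited for ranks and fold ranges, at a mean of at least 5 FPKM, and counts for shares. Intervals are exact, at the 95% level, and cover counting error only. Counts were rounded for edgeR 4.0.16 in R 4.3.3 (filterByExpr with a minimum count of 10, 12152 genes, TMM), which gave the coefficient of variation as the square root of the common dispersion. This step was tested on simulated data. Depth was 17617775 to 18672630 expected counts per library, so 3 counts, the limit that a count of 0 allows, correspond to 0.161 to 0.170 CPM. With 1 group, no test was made and no p-value is given.

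Genes and 30 gene lists (472 of 494 listed symbols matched) were chosen with earlier results of these data known. Named were the 25 genes highest by FPKM, the 15 highest by counts, the 25 with the largest range, the 8 steadiest at a mean of at least 100 FPKM, Tmem182, the 2 genes on each side of the 5 FPKM limit, the 5 most like Myh7, and up to 6 members of each list by level and 6 by range, with defining markers; a few of the genes so named are not reported here. Mitochondrially encoded genes matched no symbol and are not analysed here. Gene positions and promoters come from RefSeq and GENCODE M21 on GRCm38. Alternatives were TMM-scaled counts, DESeq2 1.42.0 size factors, a pseudocount of 1, other limits on level and each library left out in turn. With a library left out, the limit of 5 FPKM was applied again to the mean of the libraries left.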

Additional observations from a re-analysis of the deposited data

How the results depend on the processing

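No paired analysis was possible because a single group was described and no result comes from a test. By share of summed FPKM, the 10 leading genes held 35.3% (30.6% by counts; 29.9% to 31.8% with each library left out) and 32.3 genes on average held 50% (72.3 by counts; 60.5 to 79.0). The number of genes past 2-fold, 163 at a mean of at least 5 FPKM, was 488 at a mean of at least 1 FPKM, 70 at 20 FPKM, 2594 with no filter beyond a value above 0 in all 3 libraries, 135 after adding 1 to each FPKM, 141 with TMM and 140 with DESeq2 size factors. It ran from 14 to 149 with a library left out. The median range was 1.23, 1.17 and 1.32 under those filters and 1.10 to 1.13 with a library left out; a range over 2 libraries is never wider than over 3. The coefficient of variation ran from 8.76% to 19.5%, lowest without library 2.

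With a library left out, members past 2-fold ran from 0 to 15 in the slow fibre list, 0 to 7 in fatty acid oxidation, 0 to 5 in the sarcomere and tendon lists, 0 to 4 for fibroblasts, 1 to 4 for Schwann cells and 1 to 2 for fasting genes. They ran from 0 to 2 for fast fibre, citric acid cycle, heat shock and immediate early genes, and from 0 to 1 for glycolysis, creatine, oxygen, clock and endothelial genes. The members counted could change with the library left out, since the limit on level was applied again to the libraries left. With TMM scaling 1 heat shock and 1 immediate early gene passed. Leaving out mitochondrially encoded genes gave no value, since none matched. Of 239 values of named genes, 238 moved by less than 1.5 times with TMM, and 63 moved by more without library 2. Depth limits low genes: 4 of the 163 had fewer than 30 counts in their lowest library.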
